A study of Homo sapiens with 17 samples.

Results

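Human BJ foreskin-derived fibroblasts labelled as transformed were compared with proliferating BJ fibroblasts, at the level of RNA and at the level of ribosome occupancy. The comparison used 4 of the 17 libraries of the series, chosen because they came from the same sequencer run: the RNA-Seq libraries Tr.rna and C3.rna, and the Ribo-Seq libraries Tr.rp and C3.rp. BJ cells are normal human fibroblasts that are widely used to study immortalisation and transformation. The proliferating cells were immortalised with hTERT, the catalytic subunit of telomerase, and grown under normal conditions. The transformed cells carried hTERT, knockdowns of p16INK4A and p53, and SV40 small T antigen, and had received RASG12V from the retroviral vector pBabe-puro. All were cultured in DMEM with fetal calf serum. Each group had 1 library per assay, so the comparison has no replicate error and carries no test. The transformed cells differ from the control by 3 further manipulations besides RAS, and the contributions of these cannot be told apart.

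Oncogenic RAS keeps the MAP kinase (ERK) cascade active. In normal fibroblasts this ends in senescence, a permanent arrest held by the p53 and p16INK4A tumour suppressors. Cells that lack both pathways and express small T antigen keep dividing under the same oncogene, grow without anchorage and form tumours. Ribo-Seq sequences the mRNA fragments protected by ribosomes, so the ratio of Ribo-Seq to RNA-Seq gives a relative density of ribosomes on an mRNA, the translation efficiency (TE). Levels are scaled to the reads of each library, so a change shared by all mRNAs would not show in it.

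Levels were FPKM, that is reads scaled to the mapped reads of the library and to the length of the transcript (RNA-Seq) or of the coding sequence (Ribo-Seq), with values under 1 set to 1 in the deposited table. Each of the 9699 transcripts stands for 1 gene. Ratios are log2 of the transformed over the C3 value, the TE ratio is the Ribo-Seq ratio minus the RNA-Seq ratio, and a transcript was counted as different at 2-fold or more. Only transcripts with a mean FPKM of at least 5 over both libraries of an assay were considered. Where the lower library stands at the floor of 1, the fold is a lower bound and is written as "at least".

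Some features of the libraries bear on all that follows. First, the title and the condition label of C3.rp and of the senescent Ribo-Seq library S.rp contradict each other, and the titles were followed. Across the 9699 transcripts, log2 levels in C3.rp correlated with those in C3.rna with a Pearson r of 0.875 and with those in the senescent RNA-Seq library with an r of 0.796. Those in S.rp correlated with senescent RNA with an r of 0.897 and with C3.rna with an r of 0.780. The second feature is that a further proliferating column, C12, holds 2 cultures of the other sequencer run pooled by the authors. It was not part of the comparison, yet it is the sole measure of how far proliferating cultures lie apart, and its value is given beside the main results. C3.rna was at least 2-fold above C12 in 349 of 7863 transcripts (4.44%) and at least 2-fold below it in 197 (2.51%). The Ribo-Seq columns differed more, with 767 of 7751 higher in C3.rp (9.90%) and 483 lower (6.23%), and for TE 317 of 7192 were higher (4.41%) and 149 lower (2.07%). Culture and sequencer run cannot be told apart in these differences. For RNA-Seq the read layout cannot either, since the study lists C3.rna as single-end and the libraries pooled in C12 as paired-end.

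The third feature is the RAS signal itself. HRAS, which encodes a RAS GTPase, was at 312 FPKM in Tr.rna but at 1284 in C3.rna, 2415 in the C12 column and 2087 in the senescent library, whose cells carry a tamoxifen-inducible RASG12V. HRAS was therefore 4.12-fold lower in the transformed than in the proliferating RNA. ESR1, the oestrogen receptor gene whose hormone-binding domain is commonly fused to proteins to make them tamoxifen-inducible, was likewise lowest in the transformed cells, with 102 FPKM in C3.rna, 19.2 in C12, 144 in the senescent library and the floor of 1 in Tr.rna. The labels of the proliferating cells name no RAS construct. NRAS, a further RAS gene, was at 25.2 FPKM in Tr.rna and 25.8 in C3.rna and differed by less than 2-fold.

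Of the other introduced or targeted genes described here, TERT was 11.4-fold higher in Tr.rna than in C3.rna, although both groups carried hTERT. TERT, which encodes the telomerase subunit, was at 48.9 FPKM in Tr.rna, 4.29 in C3.rna and 9.91 in C12. CDKN2A, which encodes p16INK4A and, in another reading frame, ARF, was higher in Tr.rna than in C3.rna but lower than in C12. It was at 12.6 FPKM in Tr.rna, 6.75 in C3.rna and 17.2 in C12. In Ribo-Seq it was lowest in Tr.rp, at 5.51 FPKM against 8.92 in C3.rp and 13.0 in C12. Whether the counted CDKN2A transcript encodes p16INK4A or ARF was not looked up, so its level cannot be set against the p16INK4A knockdown.

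The cells were fibroblasts by their markers. All 12 fibroblast markers examined were in the table and above the floor in every library, with a summed level of 6424 FPKM in Tr.rna, 7653 in C3.rna and 6051 in C12. In RNA-Seq 5 of the 12 were at least 2-fold below C3 and 1 above, and in Ribo-Seq 7 below and 1 above. Of all transcripts 4.26% and 6.48% were that far below C3 in these assays. Against C12, 2 were lower and 3 higher in RNA-Seq. Of 11 epithelial markers 5 were in the table, with a summed level of 211 FPKM in Tr.rna, 334 in C3.rna and 200 in C12. Members other than KRT19 and DSP held nearly all of that level in Tr.rna and in C12. KRT19 and DSP, a keratin and a desmosomal protein, were at 39.8 and 19.8 FPKM in C3.rna but at 1 and 1.41 in C12 and at 1 and 1 in Tr.rna, so these epithelial-type genes were higher in the C3 control than in C12 or the transformed cells. Their part in the results was not tested. Of 8 endothelial markers 1 was in the table, at most at 3.65 FPKM. Of 9 immune markers 2 were in the table. CD14 was at 1.67 FPKM in Tr.rna, 1.43 in C3.rna and 1 in C12, whereas CD68, a lysosomal protein gene of macrophages that fibroblasts also express, was at 52.3, 72.4 and 83.6 FPKM.

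At the RNA level, 318 of 7863 transcripts (4.04%) were at least 2-fold higher in the transformed cells and 335 (4.26%) at least 2-fold lower. The median ratio of all transcripts was 0.10 on the log2 scale, and medians of gene groups are read against it. Ribosome occupancy was at least 2-fold higher for 338 of 7751 transcripts (4.36%) and lower for 502 (6.48%), with a median of 0.01. Against C12, 5.57% of the same transcripts were at least 2-fold higher in RNA and 3.61% lower. In Ribo-Seq 10.2% were higher than in C12 and 8.36% lower. Group counts against C12 are read beside these shares. The higher RNA set was less tied to the choice of control than the lower one. Against C12, 204 of the 318 higher transcripts were again at least 2-fold higher, whereas 147 of the 335 lower transcripts were again at least 2-fold lower, and 46 of these had the opposite sign. In 141 of the 335, C3.rna itself stood at least 2-fold above C12.

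Ribosome occupancy largely moved with RNA. Of the 282 transcripts higher in RNA that were measurable in both assays, 209 were also at least 2-fold higher in Ribo-Seq and 280 had a ratio above 0. Of the 313 lower ones, 259 were at least 2-fold lower in Ribo-Seq and 307 had a ratio below 0. Across 7192 transcripts the 2 ratios correlated with a Pearson r of 0.873 and a Spearman rho of 0.702, points that share the same pair of cultures but come from separate libraries.

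**Figure D1:**
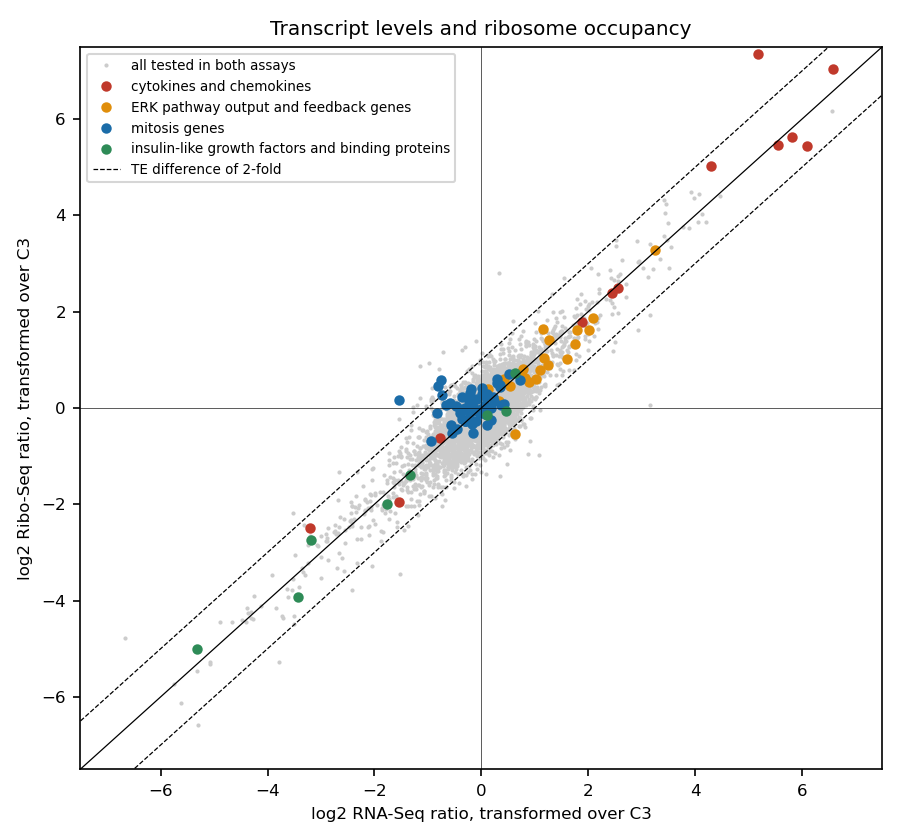
Log2 Ribo-Seq ratio against log2 RNA-Seq ratio of transformed over C3 cells for 7192 transcripts (grey), with 4 gene groups coloured, the line of equal ratios (solid) and the lines of a 2-fold TE difference (dashed). Most transcripts lie between the dashed lines, the cytokines reach the upper right corner, the mitosis genes lie around 0, and the insulin-like growth factor group extends to the lower left.

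Secreted cytokines and chemokines had the largest median RNA ratio of the gene groups. Of the 36 genes listed 16 were in the table and 12 were measurable in RNA-Seq. Of these 12, 9 were at least 2-fold higher and 2 lower, with a median log2 ratio of 3.43 against 0.10 for all transcripts. In Ribo-Seq 11 of 14 were higher and 2 lower, with a median of 3.42. For 7 of the 12 C3.rna was under 5 FPKM, for 3 of them at the floor, so these passed the level filter through Tr.rna alone and the median describes the genes that passed and not the whole list. Without the filter the median RNA ratio of the group was 2.58, and on the log2(FPKM + 5) scale it was 1.76. Against C12, 8 of the 12 were at least 2-fold higher and 3 lower.

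CSF3, the granulocyte colony-stimulating factor gene, had the largest RNA ratio of all transcripts. It was at the floor in C3.rna and in C12 and at 96.0 FPKM in Tr.rna, at least 96.0-fold higher, and its ribosome occupancy was 184 FPKM in Tr.rp against 1.40 in C3.rp. IL1B, which encodes the inflammatory cytokine interleukin-1 beta, reached 240 FPKM in Tr.rna against 3.53 in C3.rna and 1.22 in C12, a 68.0-fold difference from C3.rna. The transformed library was thus far above both proliferating columns for both cytokines.

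The neutrophil-attracting chemokines behaved alike. CXCL1 was at 374 FPKM in Tr.rna, 6.65 in C3.rna and 2.66 in C12. IL8 (now CXCL8) was at 231, 4.90 and 7.14 FPKM in the same order, and its ribosome occupancy of 1530 FPKM in Tr.rp against 34.5 in C3.rp was the highest of the group. CXCL5 was at 19.7 FPKM in Tr.rna and at the floor in both proliferating columns, and CXCL6 was at 11.8, 2.16 and 1 FPKM. The inflammatory cytokine IL6 was lower in level, at 9.99 FPKM in Tr.rna against 1.70 in C3.rna and 1 in C12.

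CXCL10 and CXCL11, chemokines for T cells that interferons induce, also stood at the floor in the proliferating columns of RNA-Seq. CXCL10 reached 36.4 FPKM in Tr.rna and 163 in Tr.rp. CXCL11 reached 6.07 and 20.5 FPKM, and its mean RNA level fell short of the filter. In the senescent libraries CXCL10 was at 1.38 FPKM in RNA-Seq and 2.63 in Ribo-Seq, and CXCL11 was at the floor in both.

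The exceptions were CXCL12, CCL2 and CSF1. CXCL12, a chemokine that stromal fibroblasts secrete constitutively, was at 3.75 FPKM in Tr.rna, 34.4 in C3.rna and 55.1 in C12, 9.18-fold lower than in C3.rna. CCL2, which attracts monocytes, was at 27.7, 81.0 and 55.5 FPKM. CSF1, the macrophage colony-stimulating factor gene, was at 7.45, 12.6 and 15.0 FPKM, less than 2-fold below C3.rna and at least 2-fold below C12. All 3 were lower in the transformed cells than in either proliferating column.

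Promoter sequences of chemokine genes are shown because these genes were higher together and because the kappaB element, the binding site of NF-kappaB factors, is known from several of them. The 180 bases before the RefSeq start (GRCh38.p14) are given 5′ to 3′ on the gene's strand. Capitals mark matches on either strand to the textbook kappaB consensus or to the AP-1 letters TGANTCA. The motifs were chosen after the expression values were seen.
CXCL1 (chr4:73869213-73869392, plus strand): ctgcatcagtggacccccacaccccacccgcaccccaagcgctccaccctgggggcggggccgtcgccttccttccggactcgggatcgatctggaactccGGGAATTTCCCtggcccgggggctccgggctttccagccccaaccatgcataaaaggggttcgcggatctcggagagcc
CXCL5 (chr4:73998678-73998857, minus strand): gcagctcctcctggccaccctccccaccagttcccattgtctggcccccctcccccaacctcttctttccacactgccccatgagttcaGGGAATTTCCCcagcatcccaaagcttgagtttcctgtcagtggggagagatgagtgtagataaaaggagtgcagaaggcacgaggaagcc
CXCL10 (chr4:76023498-76023677, minus strand): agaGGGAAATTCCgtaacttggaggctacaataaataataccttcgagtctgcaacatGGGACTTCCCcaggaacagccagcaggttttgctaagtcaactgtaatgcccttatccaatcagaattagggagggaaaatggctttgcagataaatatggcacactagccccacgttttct
IL6 (chr7:22727020-22727199, plus strand): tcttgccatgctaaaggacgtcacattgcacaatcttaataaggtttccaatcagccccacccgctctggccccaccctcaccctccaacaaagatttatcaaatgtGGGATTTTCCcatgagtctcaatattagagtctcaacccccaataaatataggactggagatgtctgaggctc
IL8 (chr4:73740389-73740568, plus strand): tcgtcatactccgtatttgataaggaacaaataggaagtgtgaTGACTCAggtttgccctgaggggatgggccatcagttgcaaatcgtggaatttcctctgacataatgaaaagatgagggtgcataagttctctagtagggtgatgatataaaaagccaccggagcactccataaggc

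In the 250 bases before the start, the kappaB consensus was present for 8 of the 13 cytokine and chemokine genes with a promoter in the RefSeq table: IL6, IL32, CXCL1, CXCL3, CXCL5, CXCL6, CXCL10 and CXCL11. The same window held it in 789 of 6593 promoters of all transcripts measurable in RNA-Seq (12%) and in 9.57% of 27303 RefSeq promoters. Unlike the 6593, the 13 include genes under the RNA-Seq level filter, namely IL32, CSF2, CXCL3 and CXCL11. IL32 was not higher in the transformed cells, with an RNA ratio of -0.22. IL1B, IL8, IL11, CSF2 and CXCL12 had no such match in this window. Among the 253 promoters of transcripts at least 2-fold higher in RNA, 43 (17.0%) held the consensus, and among the 264 of lower transcripts 28 (10.6%) did. The AP-1 letters were present for 3 of the 13 cytokine and chemokine genes (IL8, IL11 and CXCL11), in 220 of the 6593 (3.34%), in 11 of the 253 (4.35%) and in 11 of the 264 (4.17%). These matches are a description of letters, and no binding was measured.

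Genes switched on by ERK signalling, among them the inhibitors that feed back on it, were higher as a group against C3, less so against C12. Of 24 measurable members 13 were at least 2-fold higher in RNA and 0 lower, with a median of 1.06, and 23 of 24 ratios were above 0. In Ribo-Seq 9 of 23 were at least 2-fold higher and 0 lower, with a median of 0.79. Against C12 the RNA count was 10 of 24, with 0 lower, a median of 0.75 and 9 of the 13 higher against both controls. In Ribo-Seq 6 of 23 were at least 2-fold above C12 and 1 below, with a median of 0.13, and 4 were higher against both.

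EREG, which encodes the EGF receptor ligand epiregulin, was at 78.4 FPKM in Tr.rna, 8.24 in C3.rna and 7.56 in C12, and its ribosome occupancy was 326 FPKM in Tr.rp against 33.4 in C3.rp. DUSP6, the phosphatase that inactivates ERK in the cytoplasm, was at 101, 29.2 and 20.8 FPKM in RNA-Seq. Both were above either proliferating column by more than those columns lay apart.

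Other feedback genes had smaller ratios. The RAS-ERK inhibitors SPRY2, SPRY4, SPRED1 and SPRED2 had log2 RNA ratios of 1.10, 1.25, 1.27 and 1.20, and each was also at least 2-fold above C12. ETV4, an ETS transcription factor, was at 25.7 FPKM in Tr.rna, 5.99 in C3.rna and 11.1 in C12. PHLDA1 was at 139, 34.4 and 70.7 FPKM, less than 2-fold above C12, and the ephrin receptor gene EPHA2 was at 87.1, 38.8 and 88.9 FPKM, a level equal to C12. CCND1 and MYC, growth genes often placed downstream of ERK, had log2 RNA ratios of -0.08 and 0.26. EGR1 stood apart in that its RNA ratio was 0.63 while its Ribo-Seq ratio was -0.54.

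Proteases that degrade extracellular matrix were mixed, with PLAU far ahead. PLAU, which encodes the urokinase plasminogen activator, was at 1564 FPKM in Tr.rna, 70.3 in C3.rna and 111 in C12, 22.3-fold above C3.rna, and at 2563 FPKM in Tr.rp against 121 in C3.rp. Of the 15 members of the protease and inhibitor group that were measurable, 6 were at least 2-fold higher and 2 lower in RNA, with a median of 0.53. Against C12, 6 were higher and 0 lower, and 4 were higher against both. MMP14, the membrane-anchored collagenase, was at 583, 148 and 122 FPKM, and the tissue plasminogen activator gene PLAT at 499, 210 and 97.4. MMP1, the interstitial collagenase, was at 2239 FPKM in Tr.rna, 796 in C3.rna and 1289 in C12, a difference of less than 2-fold from C12. MMP3, or stromelysin, reversed with the control: it was at 201 FPKM in Tr.rna, 43.4 in C3.rna and 399 in C12. The inhibitor gene TIMP1, at 103, 430 and 81.1 FPKM, was lower than in C3.rna but not below C12.

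Genes of the interferon response were higher for part of the group. In RNA-Seq 6 of 25 measurable members were at least 2-fold higher and 1 lower, with a median of 0.65, and in Ribo-Seq 10 of 28 were higher and 2 lower, with a median of 0.56. For 4 of the 25 C3.rna was under 5 FPKM, and for 5 of the 28 C3.rp was, so these passed the filter through the transformed library alone. The RNA median was 0.84 without the filter and -0.02 at a mean FPKM of at least 20. The Ribo-Seq median at that level was 0.35. Against C12 the counts were 6 and 1 in RNA-Seq and 10 and 1 in Ribo-Seq. IFI27, of unclear function, was at 15.8 FPKM in Tr.rna, 1 in C3.rna and 1.04 in C12. IFI6 was at 227, 37.4 and 48.5 FPKM. IRF1, a transcription factor of the response, was at 12.6, 5.63 and 5.06 FPKM, whereas IFITM2, which restricts virus entry, was at 85.2, 179 and 102 FPKM and formed the exception.

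**Figure D2:**
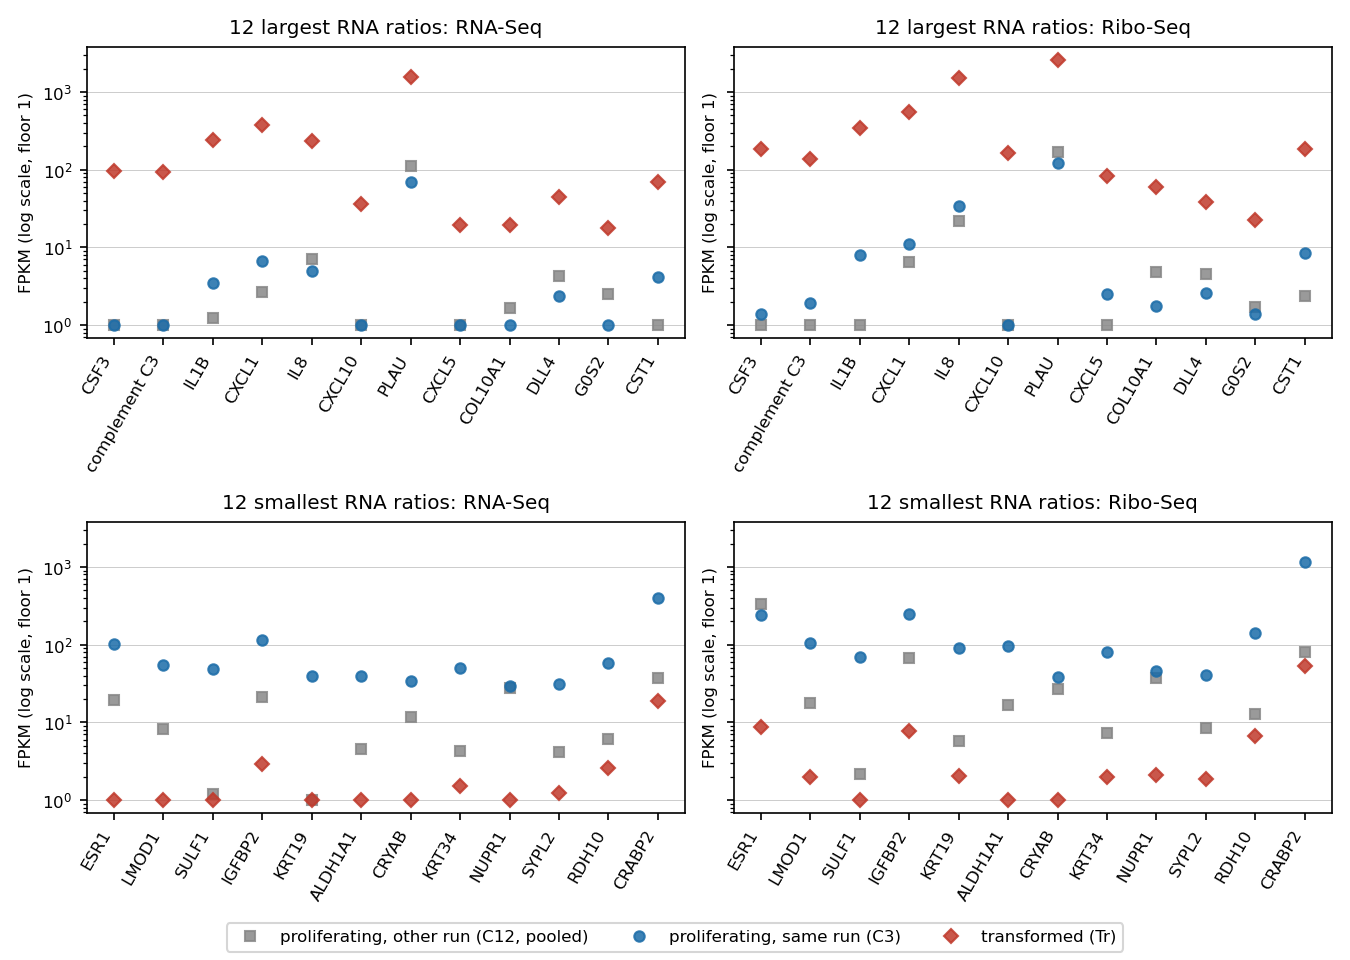
FPKM on a log scale in the C12, C3 and transformed columns for the 12 transcripts with the largest and the 12 with the smallest RNA ratio, in RNA-Seq (left) and Ribo-Seq (right). The transformed value lies above both proliferating columns for all 12 upper transcripts, and the C12 value lies below that of C3 by more than 2-fold in RNA-Seq for 11 of the 12 lower transcripts.

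The 12 largest RNA ratios ran from 4.08 to 6.58 and all 12 were at least 2-fold above C12 as well. Besides the genes above they included the complement component gene C3 (94.4 FPKM in Tr.rna and the floor in both proliferating columns), the collagen X gene COL10A1 (19.6, 1 and 1.67 FPKM), and the Notch ligand gene DLL4 (44.2, 2.38 and 4.27 FPKM). G0S2, an inhibitor of lipolysis, was at 17.6 FPKM against 1 and 2.53, and CST1, a secreted cystatin, at 69.4 against 4.11 and 1. In 6 of the 12 C3.rna was at the floor. In the senescent RNA library, whose cells carry RASG12V without the other manipulations, IL1B was at 92.8 FPKM, IL8 at 127, complement C3 at 37.0 and PLAU at 259. CXCL10, DLL4 and G0S2 were at 1.38, 1.96 and 1.27 FPKM there.

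Extracellular matrix genes of fibroblasts were lower as a group against C3.rna, but not against C12. In RNA-Seq 16 of 43 measurable members were at least 2-fold lower and 4 higher, with a median of -0.68, and in Ribo-Seq 20 of 46 were lower and 3 higher, with a median of -0.80. C3.rna stood at least 2-fold above C12 for 21 of the 43, with a median of 0.96, and against C12 the transformed library was at least 2-fold lower for 6 and higher for 12, with a median of 0.50. In Ribo-Seq 5 of the 46 were lower than in C12 and 12 higher, with a median of 0.26. Of the 16 members lower in RNA, 4 were lower against both.

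COL1A2, a chain of the main fibrillar collagen, showed this: it was at 766 FPKM in Tr.rna, 1611 in C3.rna and 384 in C12. DCN and LUM, small proteoglycans of the collagen matrix, were at 15.5 and 13.3 FPKM in Tr.rna, 164 and 155 in C3.rna, and 27.6 and 33.6 in C12. They were lowest in the transformed cells against both columns, and LUM by over 2-fold. MFAP5, a microfibril protein gene, was at 13.7 FPKM in C3.rna and at the floor in both others. ELN, the elastin gene, was at 8.52 in C3.rna and at the floor likewise, with a mean RNA level under the filter.

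Collagen VI was different in direction. COL6A1 was at 1429 FPKM in Tr.rna, 463 in C3.rna and 241 in C12, and COL6A2 at 2308, 796 and 450 FPKM. COL7A1, the anchoring fibril collagen, was at 74.9, 21.0 and 7.78 FPKM. All 3 were above both proliferating columns, as were COL5A3 (26.8, 12.8 and 1.57 FPKM) and the fibroblast receptor gene PDGFRA (71.7, 27.9 and 22.3 FPKM).

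Genes of the contractile apparatus were lower in nearly every case. In RNA-Seq 20 of 21 measurable members had a ratio below 0, 9 were at least 2-fold lower and 1 higher, with a median of -0.91. In Ribo-Seq 11 of 22 were lower and 1 higher, with a median of -1.04. Here the difference from C12 was in the same direction, with a median of -0.70 and 6 of 21 at least 2-fold lower. TAGLN, an actin-binding protein of smooth muscle, was at 54.4 FPKM in Tr.rna, 409 in C3.rna and 300 in C12, and at 381, 2595 and 4098 FPKM in Ribo-Seq. ACTA2, smooth-muscle actin, was at 7.79, 52.0 and 23.8 FPKM. LMOD1, an actin filament nucleator, was at the floor in Tr.rna against 54.0 and 8.21 FPKM, at least 54.0-fold lower than in C3.rna. CNN1, or calponin, was at 5.01, 36.9 and 3.13 FPKM and so was not below C12. SMTN, the smoothelin gene, was the member at least 2-fold higher, at 141 FPKM against 60.1 and 93.2.

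Integrin and laminin genes split by member, with 4 of 18 at least 2-fold higher and 5 lower in RNA and a median of 0.20. Against C12, 6 were higher and 1 lower, with a median of 0.66. The integrin alpha genes ITGA8 (22.1 FPKM in Tr.rna, 2.47 in C3.rna and 1.80 in C12) and ITGA11 (35.1, 6.42 and 2.50 FPKM) were far above both controls. The laminin chain gene LAMA4 was at 6.75, 37.1 and 16.8 FPKM, below both.

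Insulin-like growth factor binding proteins are secreted carriers of IGF hormones, and 4 of the 6 in the table were at least 2-fold lower in RNA than in C3.rna. Of 8 measurable members of the IGF group 5 were at least 2-fold lower and 0 higher in both assays, with medians of -1.55 in RNA and -1.69 in Ribo-Seq. IGFBP2 was at 2.87 FPKM in Tr.rna, 115 in C3.rna and 21.3 in C12. IGFBP5 was at 116, 1059 and 393 FPKM, and IGFBP6 at 30.5, 330 and 72.2 FPKM. IGF1R, the receptor gene, was at 4.61, 11.6 and 11.0 FPKM. These 4 genes were at least 2-fold below both columns. IGFBP3 (16.6, 56.6 and 17.3 FPKM) was at least 2-fold below C3.rna but level with C12. The remaining 3 members had RNA ratios above 0: IGFBP4 was at 915, 665 and 296 FPKM, IGFBP7 at 371, 346 and 207, and the receptor gene IGF2R at 72.9, 47.1 and 65.7. C3.rna stood above C12 by a median of 1.30 in this group.

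The 12 smallest RNA ratios ran down to -6.67, and 9 of the 12 were also at least 2-fold below C12. NUPR1, a stress-induced chromatin protein, gave the clearest case, with 29.6 FPKM in C3.rna, 28.0 in C12 and the floor in Tr.rna, at least 29.6-fold lower. CRYAB, a small heat shock protein, was at 33.8, 11.8 and 1 FPKM in the same order, and the retinaldehyde dehydrogenase gene ALDH1A1 at 39.5, 4.52 and 1 FPKM. RDH10, which acts one step before it in retinoic acid synthesis, was at 58.6, 6.19 and 2.62 FPKM, and the retinoic acid-binding protein gene CRABP2 at 403, 37.4 and 19.0 FPKM. SULF1, a heparan sulphate sulphatase, was at 49.1 FPKM in C3.rna but at 1.18 in C12 and 1 in Tr.rna, so its ratio rests on the C3 column. SYPL2 and the keratin gene KRT34 were at 31.4 and 50.7 FPKM in C3.rna, 4.19 and 4.29 in C12, and 1.24 and 1.5 in Tr.rna.

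**Figure D3:**
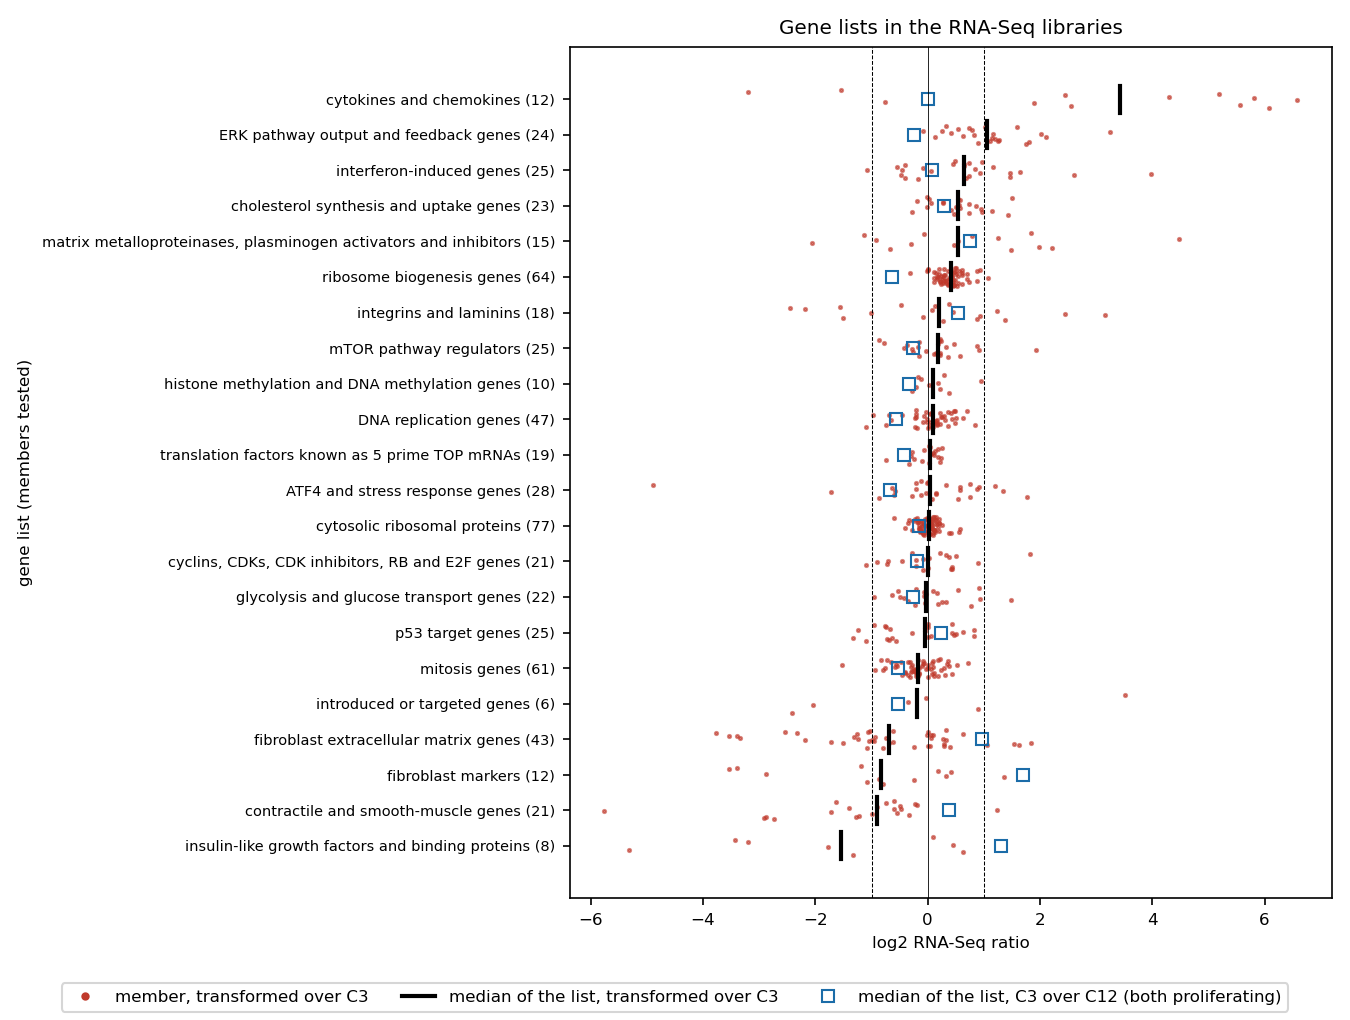
Log2 RNA-Seq ratio of transformed over C3 cells for the measurable members of each gene group (red points) with the group median (black bar), and the median ratio of C3 over the other proliferating column C12 (open blue square); dashed lines mark 2-fold. Cytokines and ERK genes lie to the right, with median C3 over C12 ratios of 0 and -0.24. Single cytokines differed more, with 3 of 12 at least 2-fold higher and 1 lower in C3 than in C12. The matrix, fibroblast marker and insulin-like growth factor groups lie to the left with C3 above C12.

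Target genes of p53, which arrest the cell cycle or repair DNA, gave an RNA median that depended on the level filter. Of 25 measurable members 0 were at least 2-fold higher and 3 lower (12%, against 4.26% of all transcripts), with a median of -0.05 against 0.10 for all transcripts. Without the filter the median was -0.56, and at a mean FPKM of at least 20 it was -0.34. In Ribo-Seq 0 of 26 were higher and 6 lower, with a median of -0.58. CDKN1A, which encodes the CDK inhibitor p21, was at 80.3 FPKM in Tr.rna, 172 in C3.rna and 80.8 in C12. ZMAT3 was at 6.93, 16.3 and 7.14 FPKM, DRAM1 at 24.3, 61.5 and 37.8, and MDM2, the ubiquitin ligase of p53, at 13.9, 20.5 and 14.9. In 0 cases was a member at least 2-fold lower against both controls. In senescent cells, whose label names no p53 knockdown, 13 of the 25 RNA levels were at least 2-fold above C3.rna, against 6.65% of all transcripts. CDKN1A was at 814 FPKM there.

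Few cell-cycle genes were past 2-fold against C3, and in RNA more were lower against C12. Of 61 measurable mitosis genes 0 were at least 2-fold higher and 1 lower in RNA, with a median of -0.17, and 0 of 63 were past 2-fold in Ribo-Seq, with a median of 0.02. Of all transcripts 4.04% were higher and 4.26% lower than C3 in RNA, and 4.36% and 6.48% in Ribo-Seq. Of 47 DNA replication genes 1 (MCM6, a subunit of the replicative helicase, at 11.98 FPKM in Tr.rna, 25.7 in C3.rna and 31.2 in C12) was at least 2-fold lower and 0 higher, with a median of 0.10. Against C12, 12 of the 61 mitosis genes and 10 of the 47 replication genes were at least 2-fold lower in RNA and 0 higher, with medians of -0.63 and -0.57. In Ribo-Seq 5 of 63 mitosis genes were lower than in C12 and 0 higher, and 13 of 48 replication genes were lower and 3 higher. Of all transcripts 3.61% were lower than C12 in RNA and 8.36% in Ribo-Seq. The Ribo-Seq count of mitosis genes is thus near the share of all transcripts. C3.rna itself lay below C12 by medians of 0.53 and 0.56 in these groups. The senescent RNA library was at least 2-fold below C3.rna for 60 of the 61 and for 39 of the 47. The medians were -3.77 and -2.66, and 12.3% of all transcripts were at least 2-fold lower there. Among cyclins, CDKs and their regulators 1 of 21 was at least 2-fold higher than C3 in RNA and 1 lower. Each is 4.76% of the group, near the shares of all transcripts against C3. The higher one was the repressor E2F7, at 33.2 FPKM against 9.44 in C3.rna and 18.9 in C12, and the lower one was CDKN1A.

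The translation machinery was near its level in C3 cells. Of the 77 cytosolic ribosomal protein genes 0 were past 2-fold in RNA, in Ribo-Seq or in TE. Of all transcripts 8.30% were past 2-fold in RNA, 10.8% in Ribo-Seq and 1.74% in TE. The TE count of 0 is thus near the share of all transcripts. Their TE ratios ranged from -0.59 to 0.47 with a median of -0.03, against -0.08 for all transcripts. Mammalian ribosomal protein mRNAs begin with a 5′ terminal oligopyrimidine (TOP) tract, through which mTOR controls their translation. In the senescent libraries the median TE ratio of the same 77 genes to C3 was -0.65. Of the 77, 16 were at least 2-fold lower there, against 6.23% of all transcripts. The 19 translation factors with such mRNAs had a median TE ratio of 0.20 in the transformed cells. Of these, 0 were past 2-fold in TE, likewise near the 1.74% of all transcripts.

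Genes of ribosome biogenesis, which build ribosomal subunits in the nucleolus, were slightly higher. In RNA-Seq 62 of 64 ratios were above 0, with a median of 0.41, and 1 reached 2-fold, UTP18 at 48.0 FPKM against 22.8 in C3.rna and 40.7 in C12. The ratio turned with the control, since C3.rna lay below C12 by a median of 0.64 and the median against C12 was -0.25.

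Metabolic and stress groups are read beside the 4.04% of all transcripts higher and 4.26% lower in RNA. The higher share was 13.0% in cholesterol synthesis and uptake. It was 10.7% in the ATF4 and stress response group, where the lower share was 7.14%. In glycolysis (4.55%) and among mTOR regulators (4.00%) the higher share was near that of all transcripts. In cholesterol synthesis and uptake 3 of 23 genes were at least 2-fold higher and 0 lower in RNA, with a median of 0.54, and 0 higher and 1 lower in Ribo-Seq. Against C12, 7 were higher and 0 lower in each assay. The sterol sensor gene INSIG1 was at 19.6 FPKM against 6.89 in C3.rna and 5.18 in C12, and HMGCS1, an early enzyme of the pathway, at 18.6 against 6.91 and 6.82. In the ATF4 and stress response group 3 of 28 were higher and 2 lower in RNA, NUPR1 among the latter. Against C12 the balance of that group was 1 higher and 8 lower, with a median of -0.45 against 0.04 with C3 as the control. In glycolysis 1 of 22 was higher, PFKFB3, which makes the activator of phosphofructokinase, at 57.2 FPKM against 20.5 and 29.7. Of the mTOR regulators 1 of 25 was higher, the inhibitor DDIT4L at 36.7 FPKM against 9.59 and 2.46. Of the 10 measurable histone and DNA methylation genes 0 were past 2-fold in RNA.

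Differences in translation efficiency were few. Of 7192 transcripts 44 (0.612%) had a TE at least 2-fold higher in the transformed cells and 81 (1.13%) at least 2-fold lower, with a median of -0.08 on the log2 scale. Centred on that median, 59 were higher and 57 lower, so the excess of lower calls rests on the offset. These counts were below the 317 and 149 found between the proliferating columns C3 and C12. Against C12, 34 of the 44 higher and 33 of the 81 lower were again past 2-fold. At least 1 of the 4 values was at the floor for 3 of the 44 and 2 of the 81.

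In 38 of the 44 transcripts of higher TE the RNA ratio was below 0, as it was in 2870 of all 7192 (39.9%). Since the RNA ratio is subtracted to give the TE ratio, choosing transcripts by high TE favours low RNA ratios, and the count is a description. The spectrin genes SPTBN1 and SPTAN1, which form the membrane skeleton, had TE ratios of 2.02 and 1.92. SPTBN1 RNA was at 51.9 FPKM in Tr.rna, 115 in C3.rna and 185 in C12, while its ribosome occupancy was 78.1, 42.4 and 111 FPKM. SPTAN1 RNA was at 45.0, 88.8 and 82.0 FPKM and its occupancy at 121, 63.1 and 47.8 FPKM. For both the RNA was lowest in Tr.rna, and occupancy was above that of C3.rp. The scaffold gene IQGAP1 had a TE ratio of 1.88, with an RNA ratio of -0.72 and a Ribo-Seq ratio of 1.16.

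Of the 61 mitosis genes 3 (4.92%) were in this set, against 0.612% of all transcripts, and they were ASPM, CENPF and KIF20B. This share rests on 3 genes and on 1 library per group and assay. Transcript and coding lengths were not at hand, so whether the TE ratios go with length was not tested. Whether they go with the quality or coverage of an RNA library was not tested either. ASPM, a spindle pole protein, had a TE ratio of 1.71: its RNA was at 4.61 FPKM in Tr.rna, 13.4 in C3.rna and 21.4 in C12, but its occupancy was 12.8, 11.3 and 8.79 FPKM. CENPF and KIF20B, which act at kinetochores and in cytokinesis, had TE ratios of 1.34 and 1.27, with RNA ratios of -0.76 and -0.80 and Ribo-Seq ratios of 0.58 and 0.47. PHIP and SREK1IP1 followed with TE ratios of 1.60 and 1.56. MTRNR2L8 (1.57) resembles mitochondrial ribosomal RNA so closely that its reads are uncertain. For ESR1 (1.89) Tr.rna was at the floor. For CXCL10 (2.17) both C3 values were, so that no TE of the control can be stated.

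**Figure D4:**
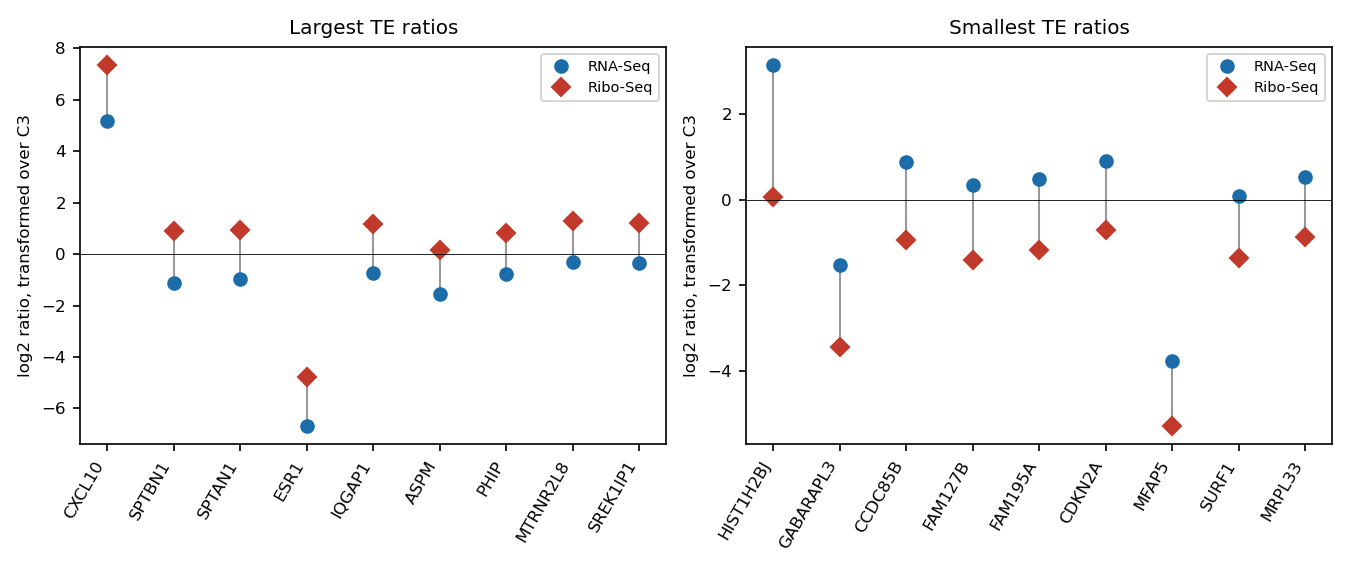
Log2 ratio of transformed over C3 cells in RNA-Seq (blue circles) and Ribo-Seq (red diamonds) for transcripts with the largest (left) and smallest (right) TE ratios, 9 on each side; the line between the symbols is the TE ratio. On the left 7 of the 9 have an RNA ratio below 0 and a Ribo-Seq ratio above it, and on the right GABARAPL3 and MFAP5 are below 0 in both.

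Among the 81 transcripts of lower TE, 51 had an RNA ratio above 0, as had 4317 of all 7192 (60%). HIST1H2BJ, a histone H2B gene, had the smallest TE ratio, -3.09, with RNA at 87.7 FPKM in Tr.rna, 9.87 in C3.rna and 14.9 in C12 and occupancy at 455, 436 and 198 FPKM. Histone mRNAs mostly lack the poly(A) tail on which the RNA-Seq libraries were selected, and near-identical copies make its reads uncertain, as they do for GABARAPL3 (-1.94) and FAM127B (-1.74). CCDC85B had a TE ratio of -1.83, with RNA at 125, 67.8 and 69.5 FPKM and occupancy at 20.3, 39.2 and 52.2 FPKM, so that RNA was highest and occupancy lowest in the transformed cells.

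CDKN2A, with a TE ratio of -1.60, was in this set, and HRAS, at -1.23, was also past 2-fold. The TE ratio of CDKN2A against C12 was -0.79. SURF1 and MRPL33, of the mitochondrial respiratory chain assembly and ribosome, had TE ratios of -1.44 and -1.40, and FAM195A one of -1.64. MRPL33 RNA was at the floor in C12, 12.04 FPKM in C3.rna and 17.4 in Tr.rna. MFAP5, at -1.50, had Tr.rna at the floor, so its TE ratio may be nearer to 0 than given.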

How the data were processed

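The authors deposited a single table of FPKM values for RNA-Seq (poly(A) RNA, whole transcript) and Ribo-Seq (cycloheximide-treated, RNase I-digested monosomes, coding sequence), sequenced on an Illumina HiSeq. Per the study's methods, 50-nt reads were aligned uniquely with Bowtie to 1 transcript per gene, that with the longest coding sequence in Ensembl release 65. The submitters' notes list hg19. Values under 1 were set to 1, and low-count transcripts were removed by the authors. The study lists read totals per library, which were not used here; the deposited table holds no read counts, so no counting error is given. C1 and C2 are held pooled as C12, and all columns named a group.

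Log2 ratios, their difference (TE) and counts at 2-fold were computed in Python 3.11.15 with pandas 2.3.3 and numpy 2.4.6, among transcripts with a mean FPKM of at least 5, and were tested on simulated data. With 1 library per group and assay there was no test and no p-value. Correlations used scipy 1.17.1 and figures matplotlib 3.10.9. The text names the 12 largest and smallest RNA ratios, the 10 largest and smallest TE ratios (clone names and Y-linked genes left out), the introduced or targeted genes, and up to 4 members past 2-fold in each direction per gene list, with other members where needed to show what stands apart; 4 genes that the rule or lists name are not reported here. The comparison and the lists were chosen with earlier results of these data known. Promoters came from RefSeq (GRCh38.p14), matched by symbol or synonym.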

Additional observations from a re-analysis of the deposited data

Results flagged for a closer look

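A few members of the gene lists differed in opposite directions in the transformed and in the senescent cells, both read against the same C3 libraries and both past 2-fold in RNA-Seq and in Ribo-Seq. The difference between the groups was not tested, since each had 1 library per assay. The level filter was taken over the transformed and C3 libraries, also for the senescent ratios. For CXCL6 and ITGA11 the mean RNA level of the senescent and C3 libraries was under 5 FPKM. Their senescent RNA ratios would therefore not pass that filter. The log2 RNA ratio of CDKN1A, which encodes p21, was -1.10 in transformed and 2.25 in senescent cells, a difference of -3.34. The chemokine gene CXCL6 had ratios of 2.45 and -1.11, a difference of 3.56. The collagen VI genes COL6A1 (1.63 and -1.64) and COL6A2 (1.54 and -1.99) differed by 3.27 and 3.52, and the collagen-binding integrin gene ITGA11 (2.45 and -1.45) by 3.90. In Ribo-Seq the corresponding ratios were -1.37 and 1.30 for CDKN1A, 2.40 and -1.42 for CXCL6, 1.47 and -1.40 for COL6A1, 1.29 and -1.90 for COL6A2, and 2.19 and -1.21 for ITGA11. Part of this rests on the C3 column. CDKN1A in Tr.rna, at 80.3 FPKM, was level with C12 at 80.8. In senescent RNA CXCL6 was at the floor, as in C12, and ITGA11, at 2.35 FPKM, was near C12 at 2.50. COL6A1 and COL6A2 were at 148 and 201 FPKM in senescent RNA, below C12 at 241 and 450.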

How the results depend on the processing

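The counts rest on 1 library per group and assay and on the C3 control, and the table gives no counting error. No paired analysis was possible because the results come from no test and the table pools the numbered cultures of the other run. For that reason the alternatives with C1 or C2 alone as the control were not run, and the pooled C12 column, chosen after seeing the data, took their place. The cause of the changes below was not tested, apart from the filters, which alter the number of transcripts considered.

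With C12 as the control, 711 transcripts were at least 2-fold higher in Ribo-Seq, and for TE 281 were higher and 390 lower. The other counts with C12 stayed within 1.5 times. With the library titled S.rp as the Ribo-Seq control, as its condition label would have it, 1175 were higher and 1009 lower in Ribo-Seq and 855 higher and 846 lower in TE. On the log2(FPKM + 1) scale 53 were lower in TE. On the log2(FPKM + 5) scale 182 were higher and 205 lower in RNA, 209 and 293 in Ribo-Seq, and 20 and 15 in TE. Without a filter 517 were lower in RNA, 512 higher in Ribo-Seq, and 124 higher and 207 lower in TE. With a mean FPKM of at least 20 there were 144 and 143 in RNA, 147 and 231 in Ribo-Seq, and 11 and 18 in TE. With calls made at a fixed multiple of the local SD of the ratio there were 204 and 283 in Ribo-Seq and 155 and 441 in TE. Centring on the median kept all 6 counts within 1.5 times.

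Some values changed sign. With C12 as the control the median Ribo-Seq ratio of the fibroblast markers was 0.36, the RNA ratios were 0.98 for GABARAPL3, -0.99 for MMP3, 0.35 for TIMP1, 0.46 for P4HA1 and -0.030 for EPHA2, and the TE ratio of ESR1 was -0.96. On the log2(FPKM + 5) scale the TE ratio of ESR1 was -0.0048. With S.rp as the control the Ribo-Seq ratios were -0.69 for COL10A1, 0.33 for CRABP2, -0.081 for IQGAP1 and -1.16 for MTRNR2L8. The TE ratios were then -0.86 for MTRNR2L8, 0.34 for HIST1H2BJ, 0.99 for CCDC85B and 0.72 for EGR1. No gene or group value changed sign on the log2(FPKM + 1) scale, after centring, or under the other filters, among those past 2-fold.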
